A study of Mus musculus with 6 samples.

Results

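The resting Il2ra-positive CD8-negative thymocytes were 389 of the 3702 filtered cells in the 2 thymus libraries of a mouse single-cell RNA study. All 6 libraries of the study held 11125 filtered cells. The 389 cells, called the members here, were chosen by raw counts of unique molecular identifiers (UMIs), each of which stands for 1 captured RNA molecule. A member had at least 1 UMI of Il2ra, 0 UMIs of Cd8a and Cd8b1 together, fewer than 15 UMIs of Ccl5, and fewer than 5 UMIs summed over the cycling genes Top2a, Mki67, Birc5, Ccna2, Cdk1 and Ube2c. Resting here means only that this last sum was below 5. Cells were filtered for 500 or more genes and 1000 or more UMIs, with no more than 20% of UMIs from the 13 mitochondrial genes. These 10 rule genes made the choice, so their values are a description of it.

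The study removed Pdcd1, the gene of the inhibitory receptor PD-1, from CD8 T cells and profiled thymus, spleen and tumor, with 1 library per genotype in each tissue. The thymus library labelled Pdcd1 cKO came from an adult mouse with a Pdcd1fl/fl locus and the E8I CD8-Cre driver on a C57BL/6 background. The thymus library labelled Pdcd1fl/fl came from a control without Cre. Thymus cells were taken with a CD8a+ T cell isolation kit. Their RNA was captured with PIPseq v3, which partitions cells in droplets around barcoded beads. E8I Cre acts in CD8+ cells after positive selection, and whether it was active in the members was not measured.

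The RNA of the deleted gene was counted as a check of the labels. Pdcd1 (ENSMUSG00000026285, GRCm39 chr1 93966027–93980312, minus strand) had 0 UMIs in the 83 members of the library labelled Pdcd1fl/fl, at a depth where a scarce RNA can be missed. It had 2 UMIs, in 2 cells, in the 306 members of the library labelled Pdcd1 cKO, a level of 0.988 CPM (counts per 1e6 UMIs of the class). In the other filtered thymus cells Pdcd1 had 12 UMIs (1.98 CPM) and 129 UMIs (7.54 CPM), a log2 ratio of 1.93 (95% interval 1.07–2.92). More Pdcd1 RNA was thus counted under the knockout label than under the control label. A count for a whole gene hides the exon a read came from, so RNA from a deleted locus could not be told from RNA of an intact one and these counts cannot settle the labels. PD-1 protein is not in these data.

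Thymocytes that have entered the T lineage rearrange their antigen receptor genes before they show CD4 or CD8. At this double-negative stage Il2ra, the alpha chain of the interleukin-2 receptor, appears on the surface, the recombinase cuts the receptor loci and terminal transferase adds bases at the joints. A rearranged beta chain then pairs with the pre-T alpha chain Ptcra, and Notch signals keep the cells in the T lineage.

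Each value pair is given in the order library labelled Pdcd1fl/fl, then library labelled Pdcd1 cKO. The libraries had 1067 and 2674 barcodes, of which 1067 and 2635 passed the filter, with 6389966 and 19304377 UMIs over 32227 genes. Members were 83 of 1067 cells (7.78%, 95% interval 6.24–9.55) and 306 of 2635 (11.6%, 10.4–12.9). These are shares of a kit-enriched product and not of the thymus, and a cell whose Cd8 RNA was missed can be among the members. All intervals here cover counting error only. With 1 mouse and 1 library per genotype, genotype, mouse and library cannot be told apart and nothing was tested between them. Members held 329019 and 2024726 UMIs, with a median per cell of 3455 (range 2705–10648) and 5573.5 (2844–21118) and a median of 1555 and 2043 genes. The median for the other filtered cells was 4505 and 5391 UMIs. Mitochondrial genes gave a median of 4.34% and 5.32% of a member's UMIs, and cytosolic ribosomal protein genes 26.9% and 32.6%. No barcode was shared between the thymus libraries, no cell was removed as a doublet and no doublet caller was run.

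The choice rested on few molecules in many members. Il2ra (ENSMUSG00000026770, chr2 11647618–11698004, plus strand) was at exactly 1 UMI in 44 of 83 and 124 of 306 members, with a largest count of 8 and 23. Its level was 477 CPM (405–558) and 399 CPM (372–428) in members. After each cell was thinned to 1000 UMIs, 41.0% and 33.0% of members still had Il2ra. Background was taken from the Ccr7 CD8 class, resting cells with Cd8 and Ccr7 but without Dntt, of which 125 and 622 were found. In that class Il2ra was seen in 8.80% and 10.3% of cells, and in 4.00% and 2.41% after thinning, at median depths of 3480 and 5248.5 UMIs.

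The filtered thymus cells were split into 6 classes that do not overlap. Next to the members stood 104 and 180 resting cells with Dntt but without Il2ra or Cd8 (Dntt-positive CD8-negative, 9.75% and 6.83%). Resting cells with both Cd8 and Dntt were 159 and 470 (14.9% and 17.8%), the Ccr7 CD8 class 11.7% and 23.6%, cycling cells 474 and 560 (44.4% and 21.3%), and the rest 122 and 497. Outside the members Cd8b1 RNA had a UMI in 49.7% and 67.6% of cells. Because the makeup of the other cells differed between libraries, a ratio of members to other cells has a different reference in each.

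The members were then read for RNA of the pre-T machinery. A UMI of Dntt, Ptcra, Rag1 or Rag2 was found in 73 of 83 (88.0%, 79.0–94.1) and 274 of 306 (89.5%, 85.6–92.7) members, against 12.0% and 5.14% of the Ccr7 CD8 class. Thinned to 1000 UMIs the shares were 50.6% and 50.3% in members and 4.00% and 1.29% in that class. The class was made without Dntt, so its share rests on the other 3 genes, while that of the members rests mostly on Dntt, which has no measured background here. Dntt itself was in 84.3% and 85.9% of members, and in 45.8% and 43.5% after thinning. Ptcra was in 18.1% and 22.2% of members against 4.00% and 1.61% of Ccr7 CD8 cells. Thinned, Ptcra was in 4.82% (1.33–11.9) of members against 0% (0–2.91) in the library labelled Pdcd1fl/fl, where the intervals overlap. Under the knockout label the thinned Ptcra shares were 6.54% (4.04–9.91) and 0.643% (0.175–1.64). Rag1 was in 18.1% and 26.5% against 8.80% and 3.54%. Thinned, Rag1 was in 6.02% (1.98–13.5) of members against 4.00% (1.31–9.09) of Ccr7 CD8 cells in the library labelled Pdcd1fl/fl, where the intervals overlap. In the library labelled Pdcd1 cKO the thinned shares were 5.88% (3.52–9.14) and 0.643% (0.175–1.64).

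The levels of these genes were then set against all other filtered thymus cells. Dntt (ENSMUSG00000025014, chr19 41017714–41047964, plus strand) had 250 and 1491 UMIs in members, 760 CPM (669–860) and 736 CPM (699–775), against 463 and 334 CPM in the other cells. The log2 ratio of members to other cells was 0.71 (0.52–0.90) and 1.14 (1.06–1.22). Ptcra (ENSMUSG00000036858, chr17 47066578–47074902, minus strand), the pre-T alpha chain, had 18 and 101 UMIs, 54.7 CPM (32.4–86.5) and 49.9 CPM (40.6–60.6), and log2 ratios of 0.96 (0.17–1.66) and 1.61 (1.27–1.95). Rag1 (ENSMUSG00000061311, chr2 101468603–101479877, minus strand) encodes the cutting subunit of the recombinase. It had 20 and 152 UMIs, 60.8 CPM (37.1–93.9) and 75.1 CPM (63.6–88.0), with log2 ratios of 0.85 (0.10–1.51) and 1.74 (1.46–2.01). Its partner Rag2 had only 2 and 5 UMIs.

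**Figure D1:**
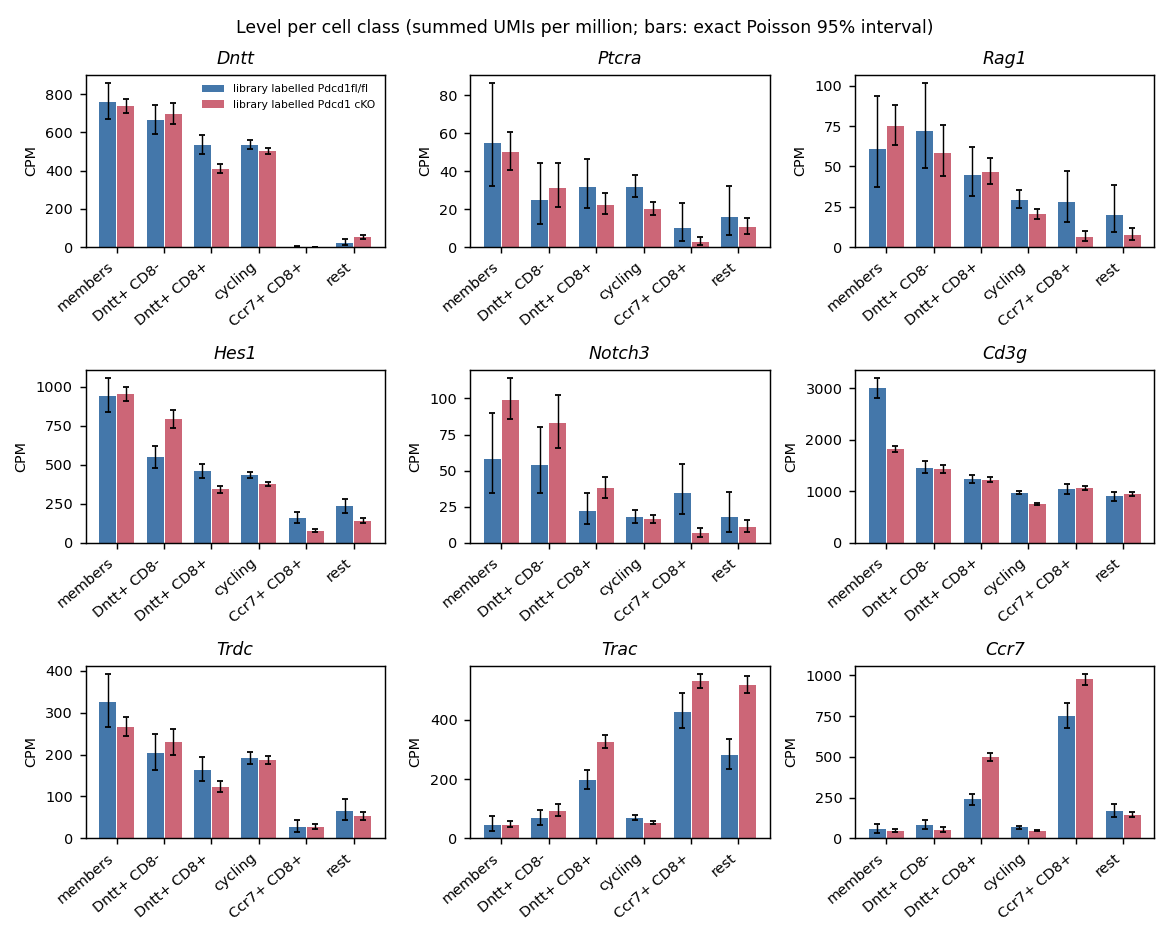
Level in CPM of 9 genes in the 6 classes of filtered thymus cells, for both libraries, with bars for exact Poisson 95% intervals. Hes1 was at 942 and 952 CPM in members and at 161 and 76.8 CPM in the Ccr7 CD8 class, while Trac ran the other way.

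The wider list of 13 measured V(D)J recombination genes had 0 genes at least 2-fold higher in members in both libraries and 0 lower, with a median log2 ratio of 0.09 and 0.25. Over all 12343 measured genes, 398 (3.22%) were at least 2-fold higher in both libraries and 270 (2.19%) at least 2-fold lower, and the median was 0.04 and 0.09. These counts used 0.5 added to both sides, and with 0 UMIs set to a floor of 3 counts they were 305 (2.47%) and 205 (1.66%). With only resting CD8-negative cells as the other cells, 30 genes were higher and 89 lower. The end-joining ligase Lig4 had log2 ratios of 0.87 and 1.10, and Dclre1c, the nuclease that opens hairpin ends, 0.18 and 1.11. The chromatin protein Hmgb2 was lower in members, at −0.95 and −0.93.

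Of the 15 pre-TCR and CD3 signalling genes, 0 were 2-fold higher in both libraries and 1 was lower, with medians of 0.37 and 0.30. Cd3g (ENSMUSG00000002033, chr9 44880870–44891735, minus strand) encodes a CD3 chain that carries the receptor signal. It stood at 2997 CPM (2813–3190) and 1825 CPM (1767–1885), with log2 ratios to other cells of 1.53 (1.43–1.62) and 0.93 (0.88–0.98). The other CD3 chains moved less, with Cd3d at 0.65 and 0.25 and Cd3e at 0.57 and 0.41. Log2 ratios were 0.36 and 0.50 for the kinase Lck, and 0.52 and 0.47 for the adaptor Lat. The adhesion receptor Cd2 was the gene that fell, to 27.4 and 24.2 CPM, with log2 ratios of −1.79 (−2.93 to −0.86) and −2.63 (−3.07 to −2.22). Cd5, a brake on receptor signals that rises with their strength, was at −0.44 and −1.71.

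A UMI of the beta chain constant genes Trbc1 or Trbc2 was found in 100% and 99.7% of members, and in 99.2% and 99.8% of Ccr7 CD8 cells. Thinned, the shares were 91.6% and 90.5% against 85.6% and 87.1%. Constant-region RNA does not show whether a locus has been rearranged. Trac, the constant gene of the alpha chain, whose locus is rearranged later, was in 13.3% and 19.6% of members against 70.4% and 86.0% of Ccr7 CD8 cells, and thinned in 4.82% and 3.27% against 40.0% and 40.4%. Trac stood at 45.6 CPM (25.5–75.2) and 46.4 CPM (37.5–56.8) in members, with log2 ratios to other cells of −1.53 (−2.38 to −0.80) and −2.51 (−2.82 to −2.21). V segments were too sparse to type cells, with 4 and 32 UMIs of Trbv, 6 and 25 of Trav, 9 and 73 of Trgv and 1 and 0 of Trdv genes over all members.

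The Notch pathway list held genes that rose in both libraries. Of 11 measured, 3 were at least 2-fold higher in both libraries and 0 lower, with medians of 0.54 and 0.43, and the whole list summed to 1416 and 1520 CPM in members against 736 and 613 CPM in other cells. The 3 were Notch3, Hes1 and Hey1. Hes1 (ENSMUSG00000022528, chr16 29882134–29886643, plus strand), a repressor switched on by Notch, had 310 and 1928 UMIs, 942 CPM (840–1053) and 952 CPM (910–996), and log2 ratios of 1.21 (1.03–1.38) and 1.66 (1.59–1.74). The receptor Notch3 (ENSMUSG00000038146, chr17 32339794–32385893, minus strand) had 19 and 201 UMIs, 57.7 CPM (34.8–90.2) and 99.3 CPM (86.0–114), with ratios of 1.36 (0.59–2.06) and 2.23 (1.97–2.48). Hey1, a repressor of the same family, rested on 4 and 37 UMIs, at 1.07 (−0.88 to 2.56) and 1.53 (0.95–2.09). The receptor Notch1 stood below the 2-fold line in the library labelled Pdcd1fl/fl, at 0.65 (0.29–0.99) and 1.04 (0.90–1.18). Among other genes of the list Hes5 had 0 and 1 UMIs, Heyl 1 and 1, Nrarp 1 and 11, and Dtx1 10 and 74.

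Hes1 RNA was found in 79.5% and 85.9% of members against 37.6% and 28.6% of Ccr7 CD8 cells. Thinned to 1000 UMIs the shares were 50.6% and 49.3% against 16.8% and 6.43%.

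Genes of early progenitors fade as T-lineage commitment proceeds. Of 7 measured, 3 were at least 2-fold higher in both libraries and 0 lower, with medians of 0.15 and 1.46. The stem cell factor receptor Kit had 5 and 61 UMIs and log2 ratios of 1.44 (−0.27 to 2.80) and 1.45 (1.01–1.87). The transcription factors Mef2c, with 5 and 47 UMIs, and Mycn, with 3 and 29, were at 2.44 (0.64–3.94) and 1.89 (1.37–2.40), and at 2.33 (−0.15 to 4.25) and 2.38 (1.66–3.08). Lmo2 and Hoxa9, which mark still earlier progenitors, had 0 UMIs in both libraries. Cd44, lost from the surface as Il2ra-positive cells mature, had 1 and 32 UMIs.

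Among 14 T-lineage transcription factors, 1 was at least 2-fold higher in both libraries and 0 lower, with medians of 0.08 and 0.22. It was Erg, an ETS factor of early thymocytes, at 1.74 (−0.25 to 3.30) and 2.14 (1.68–2.58) from 4 and 66 UMIs. The commitment factor Bcl11b had log2 ratios of 0.68 and 0.63 at 170 and 171 CPM. Runx1, which represses Cd4, was at 0.46 and 1.07, and Lef1, a partner of Tcf7 in the same pathway, at −0.53 and −0.80.

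Beta-selection genes, switched on when the pre-T receptor signals, had 0 of 11 past 2-fold in either direction, with medians of −0.12 and −0.09. The costimulatory receptor Cd27, which rises at that step, had log2 ratios of 0.59 and 0.64, and the NF-kappa-B inhibitor Nfkbia −0.89 and −0.79. In the IL-2 and IL-7 receptor pathway 0 of 15 genes were higher and 1 was lower, with medians of −0.22 and −0.05. The lower gene was Il2rb, the beta chain needed for interleukin-2 signalling, at −1.69 (−3.58 to −0.32) and −1.52 (−2.0 to −1.08) from 4 and 42 UMIs. Il2rb also sits in the regulatory T and innate lymphoid lists. The IL-7 receptor chain Il7r was at −0.29 and −1.03, and the shared chain Il2rg at −0.47 and −0.43.

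Genes of the double-positive stage split, with 1 of 9 higher, 1 lower and medians of −0.07 and 0.28. The RNA-binding protein gene Arpp21 was the higher, at 252 and 323 CPM with log2 ratios of 1.06 (0.72–1.39) and 1.47 (1.34–1.60), and Trac was the lower. Cd4 was found in 1 member of each library.

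Of the mature T cell genes 0 of 12 were higher in members in both libraries and 3 lower (4 at the floor), with medians of −0.35 and −1.5. The lower genes were Ccr7, a homing receptor, at 57.7 and 45.9 CPM with log2 ratios of −1.42 (−2.16 to −0.77) and −2.82 (−3.13 to −2.52), Ms4a4b at −1.18 and −2.19, and the integrin chain Itgb7 at −1.47 and −1.66. The cytotoxic granule gene Nkg7 stood at 328 CPM (269–396) and 169 CPM (151–188) in members. It was in 53.0% and 54.6% of members and in 31.3% and 16.3% after thinning, against 79.2% and 79.7% and, thinned, 56.8% and 32.0% of Ccr7 CD8 cells. Ccl5, a rule gene, was in 21.7% and 44.8% of members and thinned in 8.43% and 12.4%, against 44.8% and 43.6% and, thinned, 23.2% and 10.8% of Ccr7 CD8 cells.

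**Figure D2:**
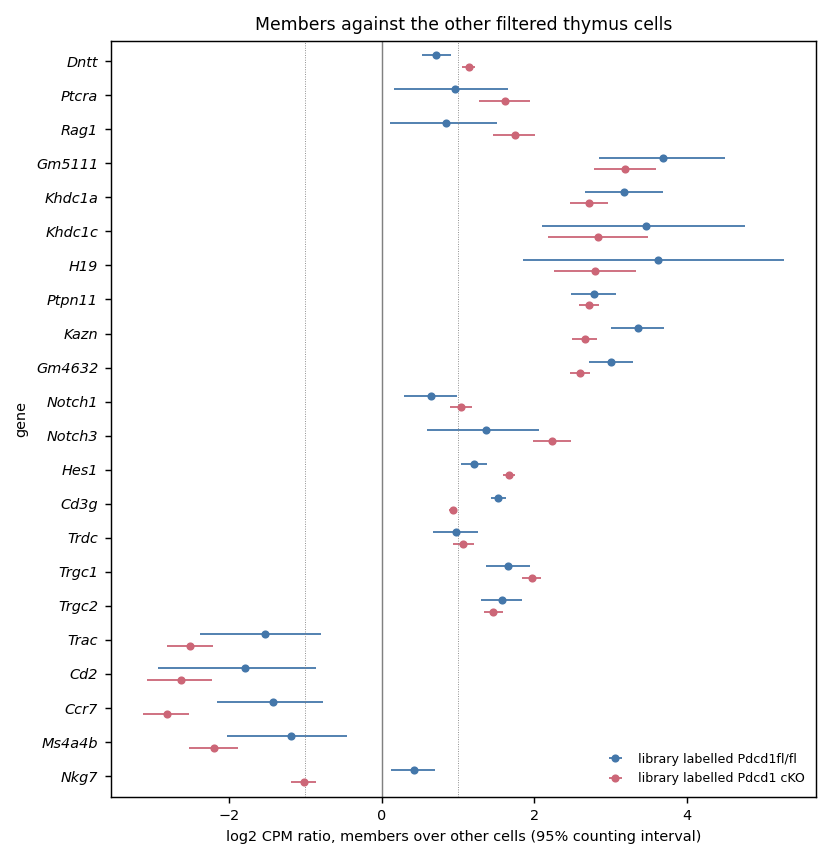
Log2 ratio of CPM, members over all other filtered thymus cells, for 22 genes in both libraries, with exact conditional binomial 95% intervals. Notch3, at 1.36 and 2.23, and Trac, at −1.53 and −2.51, lie on opposite sides of 0 in both libraries.

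The gamma-delta list also held genes that rose in both libraries. Of 9 measured gamma-delta genes, 4 were at least 2-fold higher in both libraries and 0 lower, with medians of 1.11 and 1.07, and the list summed to 1316 and 1138 CPM against 493 and 421 CPM in other cells. The 4 were the gamma constant genes Trgc1, Trgc2 and Trgc4 and the kinase Blk. Log2 ratios were 1.66 (1.36–1.94) and 1.97 (1.84–2.09) for Trgc1, 1.57 and 1.46 for Trgc2, and 1.88 and 1.58 for Trgc4. Trdc (ENSMUSG00000104876, chr14 54380308–54386325, plus strand), the delta constant gene, had 107 and 540 UMIs, 325 CPM (267–393) and 267 CPM (245–290), and ratios of 0.97 (0.67–1.26) and 1.07 (0.93–1.21). Il17a had 0 UMIs in both libraries, Sox13 1 and 11, and Maf 4 and 64, while Blk passed 2-fold on 2 and 13 UMIs. Trdc was found in 57.8% and 52.3% of members against 9.60% and 12.2% of Ccr7 CD8 cells, and thinned in 25.3% and 20.9% against 4.00% and 3.86%.

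Members with and without Trdc were compared for the pre-T genes. In the library labelled Pdcd1 cKO the 160 members with Trdc, at a median of 6525.5 UMIs, had 44.6 CPM of Rag1 (33.6–58.1) and 69.7 CPM of Notch3 (55.8–86.1). The 146 members without Trdc, at a median of 4729 UMIs, had 123 CPM of Rag1 (99.4–149) and 145 CPM of Notch3 (120–174). Ptcra was at 37.3 CPM (27.3–49.8) with Trdc and 69.5 CPM (52.3–90.4) without, while Dntt was at 833 CPM (783–885) and 586 CPM (534–642). The library labelled Pdcd1fl/fl had 48 and 35 such members, at medians of 3319 and 3578 UMIs, with Rag1 at 36.8 CPM (14.8–75.7) with Trdc and 93.8 CPM (49.9–160) without, and Notch3 at 52.5 CPM (25.2–96.6) and 64.9 CPM (29.7–123). The difference between the groups was not tested.

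The members without any UMI of Dntt, Ptcra, Rag1 or Rag2 numbered 10 and 32, at median depths of 2962 and 3773 UMIs against 3544 and 5912.5 for those with 1 or more. Hes1 stood at 952 and 533 CPM in them and at 941 and 984 CPM in the others. Trac was at 119 and 238 CPM against 37.2 and 31.9 CPM, and Nkg7 at 268 and 371 CPM against 335 and 154 CPM. Low depth leads a cell into this group, so it may hold both pre-T cells with missed RNA and other cells, in shares not known.

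Levels were also taken at each threshold of the rule. Cells that met the rule except for Il2ra, 146 and 285 of them with 0 UMIs, had Dntt at 501 and 485 CPM and Trac at 104 and 199 CPM. Members with 1 UMI of Il2ra had Dntt at 656 and 665 CPM, Hes1 at 691 and 933 CPM and Trac at 70.9 and 64.2 CPM. With 2 UMIs they had Dntt at 938 and 699 CPM, Hes1 at 977 and 956 CPM and Trac at 26.4 and 25.9 CPM. Those with 3 or more had Dntt at 809 and 817 CPM, Hes1 at 1416 and 968 CPM and Trac at 11.9 and 41.0 CPM, the 11.9 CPM from 1 UMI. Ptcra was at 25.5 and 33.6 CPM with 0 UMIs of Il2ra, and at 35.4 and 34.8, 79.3 and 42.4, and 71.4 and 66.8 CPM with 1, 2 and 3 or more. Rag1 was at 61.1 and 44.1 CPM with 0, and at 41.4 and 54.9, 119 and 54.2, and 47.6 and 103 CPM in the same steps. The steps are made with a rule gene and differ in depth, and 9 UMIs gave the 119 CPM, so no trend was read from them.

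At the CD8 threshold, 24 and 86 cells with 1 UMI of Cd8a or Cd8b1 that otherwise met the rule had Dntt at 648 and 718 CPM, and Ccr7 at 156 and 89.3 CPM. With 2 or more, 29 and 119 cells had Dntt at 414 and 223 CPM and Ccr7 at 497 and 666 CPM. In the cycling sum, 9 and 14 members stood at 4, with Dntt at 513 and 625 CPM, and 4 and 12 cells stood at 5, with Dntt at 427 and 696 CPM. In the Ccl5 count 1 member of the library labelled Pdcd1 cKO was at 14 UMIs, and 1 cell there was left out at 15 or more.

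Set beside the Dntt-positive CD8-negative cells, which lack Il2ra, few genes of the members passed 2-fold. Of 7290 measured genes 13 (0.178%) were at least 2-fold higher in both libraries and 33 (0.453%) at least 2-fold lower (23 and 34 at the floor). Medians were 0.01 and −0.03. Among measured list genes outside the rule Ccnb1, a mitotic cyclin, was the only one past 2-fold, to which the floor added 1 S phase gene, also lower. Early progenitor genes had 0 measured here, so Kit, Mef2c and Mycn were not counted. The Notch list had 7 measured and the gamma-delta list 4. Log2 ratios of members to these cells were 0.19 and 0.08 for Dntt, which the class was chosen to hold, 1.14 (−0.02 to 2.37) and 0.67 (0.08–1.30) for Ptcra, and −0.25 and 0.36 for Rag1. Hes1 was higher in members, at 0.78 (0.53–1.03) and 0.27 (0.15–0.39). Cd3g was at 1.04 and 0.36, Trgc1 at 0.77 and 0.97, and Trac at −0.57 and −1.01.

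Against the resting cells with Cd8 and Dntt the log2 ratios were 0.79 and 1.16 for Ptcra, 1.04 and 1.48 for Hes1 and 1.40 and 1.40 for Notch3. Trac was at −2.11 and −2.82 in that comparison and Ccr7 at −2.05 and −3.44. Against the cycling cells, which outnumber members, Rag1 was at 1.05 and 1.88 and Notch3 at 1.69 and 2.60, and the mature genes were closer, with Trac at −0.61 and −0.18 and Ccr7 at −0.22 and −0.03. Against the Ccr7 CD8 class Hes1 was at 2.55 and 3.63, Ptcra at 2.45 and 4.09, Trdc at 3.64 and 3.29 and Trac at −3.23 and −3.51.

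The 10 genes that rose most in members over other cells were named by the smaller of the log2 ratios in the 2 libraries, with 0.5 added to counts. Gm5111 (ENSMUSG00000052730, chr6 48566379–48567518, plus strand), annotated as a long noncoding RNA, had 23 and 109 UMIs, 69.9 and 53.8 CPM, and ratios of 3.68 (2.85–4.49) and 3.19 (2.79–3.59). Khdc1a (ENSMUSG00000067750, chr1 21419865–21422424, plus strand), of a family with an RNA-binding domain, had 50 and 234 UMIs, 152 and 116 CPM, and ratios of 3.17 (2.66–3.68) and 2.71 (2.46–2.96). Its relative Khdc1c was at 3.47 and 2.84 from 9 and 38 UMIs. The imprinted noncoding RNA H19 had 6 and 55 UMIs and ratios of 3.62 (1.85–5.27) and 2.80 (2.25–3.33). The predicted gene Gm4632 was in 53 and 215 members, at 438 and 419 CPM, with ratios of 3.0 and 2.59. Gm19590 rested on 2 and 35 UMIs, at 3.2 (−0.26 to 6.01) and 3.35 (2.60–4.11), and Gm19696 on 4 and 44, at 2.50 and 2.56.

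The other 3 genes were Ptpn11, Kazn and Ifitm1. Ptpn11, the gene of the phosphatase SHP-2, was in 19 and 89 members at 407 and 437 CPM, with ratios of 2.77 and 2.71. In the library labelled Pdcd1fl/fl 1 cell held 31.3% of its UMIs, and without that cell the level was 284 CPM. Kazn, a cytoskeletal linker gene, was in 17 and 62 members at 340 and 248 CPM with ratios of 3.35 and 2.66, and without the largest cell of the library labelled Pdcd1fl/fl, with 23.2% of UMIs, it was at 264 CPM. Ifitm1, of an interferon-induced family, had 0 UMIs there, so its place among the 10 rests on the 0.5 added and not on a measured rise. It had 32 UMIs in 10 members of the library labelled Pdcd1 cKO, of which 37.5% were in 1 cell.

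At least 3 of these 10 genes were found together in 28.9% and 40.2% of members, and none in 19.3% and 11.8%. The genes were picked for their level in members, so the shares of 6.73% and 19.4% with at least 3 in the Dntt-positive CD8-negative cells only show how far the set spread. The Ccr7 CD8 class had 2.40% and 0.161%.

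The 10 genes that fell most, named by the larger of the log2 ratios, held 4 genes of cell division. Where a gene had 0 UMIs in members of the library labelled Pdcd1fl/fl, its place rests on the 0.5 added to counts. Cep55 had 0 UMIs in members of the library labelled Pdcd1fl/fl, a log2 ratio of at most −1.11 at 3 counts, and −3.63 in the other library. Ncapg was at −3.01 and −2.43, Spc25 at −2.31 and −3.07 and Aurkb at −2.26 and −2.60. The rule leaves out cycling cells, so a fall of such genes against all other cells follows from the choice. With only resting cells as the other cells Aurkb was at 0.49 and 0.14. The other 6 were the protease gene Adam19 (0 UMIs, then −2.79), Gm10184 (−4.21 and −2.46), Slfn2, a restraint on T cell growth (−3.50 and −2.35), 1700016L21Rik (0 UMIs, then −2.70), Gm26885 (−2.85 and −4.37) and the class I gene H2-Q2 (−2.60 and −2.23).

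Cell-cycle genes outside the rule were counted too. Of 15 G2 and M phase genes 0 were higher and 13 lower (14 at the floor), with medians of −1.59 and −1.63, and of 16 S phase genes 0 were higher and 2 lower, Tyms and Rrm2, with medians of −0.54 and −0.68. The replication clamp Pcna stood at 392 and 301 CPM in members, with log2 ratios of −0.63 and −0.78. It had a UMI in 52 of 83 and 232 of 306 members, so resting does not mean free of S phase RNA. The cycling sum was 0 in 35 and 125 members. Hes1 was at 1145 and 1093 CPM in these and at 808 and 859 CPM in the members with a sum of 1 to 4.

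Markers of other lineages were counted over the whole list each time. Of the regulatory T genes 0 of 6 were higher and 1 lower, with medians of 0.13 and −0.64 (−0.03 and −0.69 at the floor). Their sum was 392 and 588 CPM against 296 and 464 CPM in other cells, with Ctla4 the most abundant at 170 and 278 CPM. The defining factor Foxp3 had a UMI in 0 of 83 and 1 of 306 members, at a depth where it can be missed. Innate lymphoid and NK genes had 0 of 9 higher and 1 lower, with medians of −0.62 and −1.03 (2 lower, −0.08 and −1.07 at the floor), a sum of 97.3 and 231 CPM against 161 and 341 CPM, and Id2 as the most abundant. Il1rl1 and Ncr1 were at 0 in both libraries. Whether a few members belong to these lineages was not tested.

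The B cell list had 0 of 4 genes past 2-fold in either direction, with medians of 0.09 and −0.24, and summed to 82.1 and 70.6 CPM against 158 and 112 CPM in other cells. Ighm gave 19 of 27 and 108 of 143 of its UMIs, and Cd79a and Ms4a1 were at 0. For myeloid cells 1 of 3 genes was higher, Lyz2, and 0 lower, with medians of 0.44 and 0.63 and a sum of 179 and 134 CPM against 130 and 86.2 CPM. Cst3, which many cell types make, gave 55 of 59 and 249 of 272 UMIs, and Csf1r, C1qa, C1qb, Itgam, S100a8 and S100a9 were at 0. Dendritic cell genes had 0 of 4 past 2-fold, medians of −0.21 and 0.05, and a sum of 18.2 and 25.7 CPM against 28.7 and 46.0 CPM, with H2-Ab1 the most abundant.

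The thymic epithelium list had 1 of 2 genes higher, Epcam, and 0 lower, with medians of 1.49 and 1.26 and a sum of 57.7 and 65.2 CPM against 20.3 and 24.7 CPM. Epcam, an adhesion protein also made by some thymocytes, gave 13 of 19 and 88 of 132 UMIs, and Krt5 and Foxn1 were at 0. Endothelium genes had 0 of 3 past 2-fold, medians of −0.44 and 0.27, and a sum of 54.7 and 69.1 CPM against 67.5 and 67.8 CPM. Pecam1 gave 14 of 18 and 113 of 140 UMIs, and Kdr was at 0. The source of these RNAs was not tested.

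Connective tissue RNA was, but for 1 UMI, in members of the library labelled Pdcd1 cKO. Of 7 measured genes 0 passed 2-fold in both libraries, with medians of −1.95 and 1.31 (0 and 1.25 at the floor), and the list summed to 3.04 and 63.2 CPM in members, from 1 and 128 UMIs, against 84.6 and 26.3 CPM in other cells. The 128 UMIs were in 25 members. The matrix protein gene Dcn gave 63 of them, 50 in 1 cell, and stood at 6.43 CPM without that cell. Lum and Pdgfra were at 0. The erythroid list had 0 genes with enough UMIs to measure in both libraries and summed to 0 and 28.6 CPM, against 0.330 and 8.24 CPM in other cells, with Hbb-bt giving 37 of 58 UMIs, 35.1% of them in 1 cell. Whether these came from free RNA or from joined cells was not tested.

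Effector and inhibitory receptor genes had 0 of 11 higher and 1 lower, the pore protein Prf1 with 0 and 6 UMIs, and medians of −0.44 and −0.70. At the floor 1 was lower, without Prf1, and the medians were 0 and −0.71. Among sex-linked genes 0 of 4 passed 2-fold. Xist had 0 and 1 UMIs in members and the Y-linked Ddx3y 95 and 612, so the RNA of both libraries reads as male. The 13 mitochondrial genes had 0 past 2-fold, with medians of 0.12 and 0.28. Of 82 cytosolic ribosomal protein genes 1 was higher, Rpl3l, and 0 lower, with medians of −0.02 and −0.08.

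Between the libraries the members differed in many genes, without a replicate to judge them by. Of 10411 measured genes 1186 (11.4%) were at least 2-fold higher in the members of the library labelled Pdcd1 cKO and 1063 (10.2%) at least 2-fold lower, with a median log2 ratio of −0.05. With the control label as the denominator, log2 ratios were −0.05 (−0.24 to 0.15) for Dntt, −0.13 (−0.87 to 0.68) for Ptcra, 0.30 (−0.37 to 1.06) for Rag1, and 0.02 (−0.16 to 0.19) for Hes1. In the other cells the same ratios were −0.47, −0.79, −0.59 and −0.44. Under the knockout label the cells outside the members also held a smaller share of cycling cells and a larger share of Ccr7 CD8 cells. Whether this bears on the ratios was not tested.

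Other list genes are given in the same direction, and their intervals, of counting error alone, do not show a difference between genotypes. Cd3g was at −0.72 (−0.82 to −0.61), with −0.12 in other cells, and Nkg7 at −0.96 (−1.27 to −0.63), with 0.48 in other cells. Notch3 was at 0.78 (0.10–1.54), with −0.09 in other cells, and Runx1 at 0.68 (0.29–1.09). Dclre1c was at 1.26 (0.16–2.61) and Zap70, the kinase that docks to CD3, was at −1.20 (−2.05 to −0.27). Trdc was at −0.29 (−0.59 to 0.03). Klf2, which controls exit from the thymus, was at −1.35 (−1.89 to −0.79) with 0.49 in other cells. In the library labelled Pdcd1fl/fl 1 cell held 14 of the 41 Klf2 UMIs, and without it the level went from 125 to 83.3 CPM, against 48.9 CPM in the other library. B2m, the light chain of class I molecules, was at 0.30 in members and 0.93 in other cells, and the class I gene H2-K1 at 0.80 and 0.96.

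The lists were counted between libraries in the same way, with 0.5 added to counts. With 0 UMIs set to the floor of 3 counts in place of that, 1159 of all genes (11.1%) were higher and 949 (9.12%) lower. V(D)J genes had 1 of 11 higher and 0 lower (median 0.06), pre-TCR and CD3 genes 1 and 1 of 15 (−0.17), T-lineage factors 2 and 0 of 14 (0.00), and beta-selection genes 0 of 11 (0.26). The Notch list had 2 of 11 higher and 0 lower (0.21). Of early progenitor genes 2 of 7 were higher, Cd34 and Cd44, and 0 lower (0.86, or 0.65 at the floor), and 2 of 7 were higher at the floor, without Cd34, which had 0 and 19 UMIs. Double-positive genes had 1 of 8 higher (0.41) and gamma-delta genes 1 of 7 higher (−0.19, or 0.07 at the floor). Mature T genes had 2 of 12 lower, Klf2 and Dapl1 (−0.22). Without its largest cell in the library labelled Pdcd1fl/fl, Klf2 was at 83.3 CPM there and did not pass 2-fold. Dapl1 rested on 6 and 5 UMIs.

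In the IL-2 and IL-7 receptor pathway 4 of 13 genes were higher and 0 lower (0.40). Socs2, Socs3 and Cish, feedback inhibitors of cytokine signals, were among them. Socs2 rested on 1 and 21 UMIs, Socs3 on 5 and 80, and Cish on 1 and 36. The other, Il15ra, did not pass at the floor. S phase genes had 0 higher and 7 of 16 lower (−0.96), among them the thymidylate synthase Tyms at −1.39 and the helicase subunits Mcm3 at −1.17 and Mcm6 at −1.14. G2 and M phase genes had 0 higher (1 at the floor) and 4 of 14 lower (−0.65). The rule genes had 0 of 8 higher and 5 lower (−1.08). The rule limits the cycling genes in raw UMIs, and members were deeper under the knockout label, at a median of 5573.5 against 3455 UMIs. A deeper cell passes that limit only at a lower cycling level, and how far this bears on the cell-cycle genes was not tested. Innate lymphoid and NK genes had 3 of 8 higher (0.58), with Id2, a blocker of E proteins, at 1.30, effector genes 2 of 8 higher (0.70), and regulatory T genes 0 of 5 (0.62). At the floor 3 of 8 innate lymphoid and NK genes were higher, without Zbtb16, and 1 of 8 effector genes, without Ifng. Connective tissue genes had 4 of 4 higher (2.12), but 2 of 4 at the floor (0.89), where Col1a2 and Rarres2 did not pass. The erythroid list had 1 of 1 higher. Mitochondrial genes had 4 of 13 higher and 0 lower (0.68), and cytosolic ribosomal protein genes 4 of 82 higher and 1 lower (0.34).

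Of the 10 genes with the highest ratios between libraries, 8 had 0 UMIs in members of the library labelled Pdcd1fl/fl, so their ratios are lower bounds at 3 counts. Mt2, a metal-binding protein gene, had 0 and 128 UMIs, a log2 ratio of at least 2.79, and Lepr, the leptin receptor, 0 and 99 UMIs, at least 2.42. In other cells the ratios were 1.85 and 4.16. Neat1, a nuclear noncoding RNA, had 54 UMIs in the library labelled Pdcd1 cKO, mt-Nd6 53, Gm26754 52, the cell-death gene Bmf 51, D6Wsu163e 48, with 68.8% in 1 cell, and Gpatch2 46. Gm50021 had 8 and 1847 UMIs, at 5.23 (4.25–6.44) in members and 3.24 in other cells. Macrod2 had 1 and 267 UMIs, at 5.44 (2.95–10.75), with 56.6% of the 267 in 1 cell.

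For 4 of the 10 lowest, most UMIs under the control label were in 1 cell. The 10 were 1700123J17Rik at −3.14, with 34 of 50 UMIs of the library labelled Pdcd1fl/fl in 1 cell, 1700034P13Rik at −2.92, Bmerb1 at −2.74 (−3.46 to −2.03), Ankrd36 at −2.70, with 84.2% in 1 cell, the lactase gene Lct at −2.53, the centromere protein gene Cenps at −2.30, Gm17655 at −2.30, with 75.0% in 1 cell, Exoc3l2 at −2.30, with 56.3% in 1 cell, the thymidine kinase Tk1 at −2.23 and Pfas, of purine synthesis, at −2.15. For Bmerb1 the other cells gave −2.58, and for Tk1 and Pfas −0.41 and −0.44. The limit on cycling genes was set for members and not for the other cells, and whether it bears on Tk1 was not tested.

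**Figure D3:**
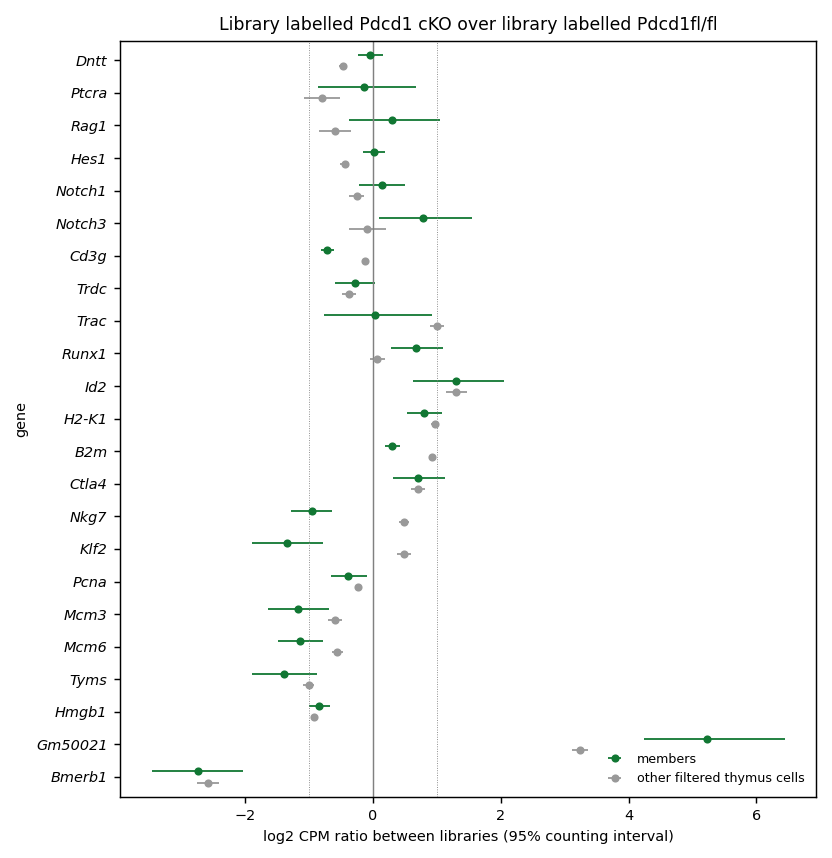
Log2 ratio of CPM between the libraries, with the control label as the denominator, in members and in all other filtered thymus cells, for 23 genes with exact conditional binomial 95% intervals. Hes1, at 0.02 in members and −0.44 in other cells, and Nkg7, at −0.96 and 0.48, differ between the 2 sets of cells.

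Promoters of the members' marker genes were read for the letters bound by E proteins (E-box, CANNTG) and for the core site of the Notch partner RBPJ (TGGGAA, both strands). The table was RefSeq's for GRCm38.p6, in windows of 250 bases upstream of RefSeq's starts. Of 32851 promoters 66.2% held an E-box, 21.6% an RBPJ core and 12.2% at least 3 E-boxes. Of 14 genes searched and found, Il2ra, Dntt, Ptcra, Rag1, Rag2 and 9 Notch pathway genes, 8 held an E-box, 4 an RBPJ core and 2 at least 3 E-boxes. The windows of Il2ra and Notch3 held neither, which says only that the letters are not in that window. Dntt had 3 E-boxes and 0 RBPJ cores, Ptcra 2 and 2, and Rag1 3 and 1. No entry was found for Hes1, Hey1 or Heyl, so these were not searched. Exact matches of the 3 windows in GRCm39 were chr19 41017464–41017713, chr17 47074639–47074888 and chr2 101479878–101480127. The Ptcra window lies inside the gene as GENCODE places it. Motif letters are in capitals, and a match is a description of sequence and not of binding.

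Dntt: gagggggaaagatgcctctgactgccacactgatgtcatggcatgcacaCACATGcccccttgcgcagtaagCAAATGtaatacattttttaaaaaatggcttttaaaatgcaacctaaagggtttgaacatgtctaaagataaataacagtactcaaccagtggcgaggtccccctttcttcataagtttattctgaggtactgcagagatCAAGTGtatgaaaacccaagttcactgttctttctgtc

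Ptcra: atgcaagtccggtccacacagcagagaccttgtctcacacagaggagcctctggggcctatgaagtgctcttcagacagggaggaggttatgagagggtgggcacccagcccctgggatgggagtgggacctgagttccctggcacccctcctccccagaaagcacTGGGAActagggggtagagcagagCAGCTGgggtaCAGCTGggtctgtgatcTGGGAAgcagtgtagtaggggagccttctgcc

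Rag1: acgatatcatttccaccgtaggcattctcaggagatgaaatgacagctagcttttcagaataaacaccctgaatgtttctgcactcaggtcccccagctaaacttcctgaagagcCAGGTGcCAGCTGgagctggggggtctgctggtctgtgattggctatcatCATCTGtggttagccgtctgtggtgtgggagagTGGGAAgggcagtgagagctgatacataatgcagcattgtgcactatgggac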

How the data were processed

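Single-cell RNA was counted in 6 libraries, from thymus, spleen and tumor of 2 genotypes. The deposited matrices hold, per the labels, the authors' raw count of UMIs per gene and barcode, made with the PIPseq pipeline v3.2 on GRCm39, and the authors worked in Seurat 4.3.0. Every entry was checked to be a whole number. Cells and classes were defined by the thresholds given in the report, and thinning drew 1000 UMIs per cell without replacement.

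UMIs were summed over the cells of a class and divided by the class total (CPM). Levels have exact Poisson intervals, shares Clopper-Pearson intervals and log2 ratios exact conditional binomial intervals, all at 95%. No test was made, since each genotype has 1 thymus library. A count of 0 was set to a floor of 3 counts to give a bound. Counts of genes past 2-fold and medians used 0.5 added to both sides, unless the floor is named. A gene was measured with at least 10 UMIs on both sides together, and past 2-fold meant the stated direction in both libraries, or between them.

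Named genes were Il2ra, Dntt, Ptcra and Rag1, then the genes of 25 lists (254 of 255 symbols matched), which cover the pathways, stages and lineages given in the report. From the table of all genes they were the 10 highest in members over other cells by the smaller log2 ratio of the libraries, with 0.5 added to counts, among genes with at least 30 UMIs and a UMI in at least 10 members, and the 10 lowest by the larger ratio, among genes with at least 300 UMIs in other cells. Between libraries they were the 10 highest and 10 lowest with at least 30 UMIs and a UMI in at least 10 members. Rule genes were left out of the first ranking. Members and lists were chosen with earlier results of these data known. Genes that a list count names in passing are members of that list. Values of some list genes are not reported here.

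Alternatives changed the thresholds, cell filter, scaling, cell weights, reference cells and count minimum. Positions came from GENCODE vM39. The calculations were tested on simulated data and used Python 3.11.15, numpy 2.4.6, scipy 1.17.1, pandas 2.3.3 and matplotlib 3.10.9.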

Additional observations from a re-analysis of the deposited data

Results flagged for a closer look

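Among the named genes outside the rule, 5 had log2 ratios of members to other thymus cells of opposite sign in the 2 libraries with both counting intervals clear of 0. Values are given for the library labelled Pdcd1fl/fl, then the library labelled Pdcd1 cKO, and the difference between libraries was not tested for any of them. Dcn was at −2.45, a bound from 0 UMIs in members, and 1.17. Gm50021 was at −1.88 and 0.10, and B2m at 0.53 and −0.10. Macrod2 was at −3.16, from 1 UMI in members, and 2.73. Nkg7 was at 0.42 and −1.02. For Dcn and Macrod2 1 cell of the library labelled Pdcd1 cKO held most UMIs of the members. Each library has its own mix of other cells, 1 mouse and 1 preparation, so the source of these differences cannot be assigned.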

How the results depend on the processing

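No paired analysis was possible because each genotype has 1 thymus library and no label pairs the mice. Of the comparisons' main results, 50 values under the alternatives stayed within their interval or within 1.5 times the count, and 12 moved. Of the values for single genes and lists 762 stayed, 216 moved and 11 changed sign.

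The share of members, library labelled Pdcd1fl/fl then library labelled Pdcd1 cKO, was 7.78% and 11.6% and changed with the thresholds by construction. It was 3.66% and 6.91% with Il2ra at 2 or more UMIs, 3.28% and 4.74% with a cycling sum of 0, and 10.03% and 14.9% with up to 1 CD8 UMI. With the rule applied to thinned cells, all at the same depth, it was 5.53% and 6.57%. The gap between the libraries was thus smaller at equal depth. Without a cell filter and with the strict one it stayed within its interval. Genes 2-fold higher in members numbered 30 in place of 398 with resting CD8-negative cells as the other cells and 252 with resting cells, and genes lower numbered 89 in place of 270 with resting CD8-negative cells. List genes higher numbered 25 in place of 14 with no minimum of UMIs, since more genes were then counted.

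Signs changed as follows, and the cause was not tested. With resting CD8-negative cells as the other cells Ncapg was at 2.45 in the library labelled Pdcd1fl/fl, Aurkb at 0.87 and 0.94 in the 2 libraries, and Dcn at −1.22 in the library labelled Pdcd1 cKO. With resting cells Aurkb was at 0.49 and 0.14. With Il2ra at 2 or more UMIs, in the library labelled Pdcd1 cKO, Dcn was at −3.83, Macrod2 at −1.65 and the connective tissue list at −1.24, and Lct was at 0.46 between libraries. With a cycling sum of 0 Gm17655 was at 0.041 between libraries.

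With totals lacking mitochondrial, ribosomal protein and Malat1 UMIs the median gene between libraries went from −0.05 to 0.09. With median of ratios scaling the median gene of members over other cells went from 0.04 to −0.09 in the library labelled Pdcd1fl/fl. Depth limits the library labelled Pdcd1fl/fl most, where 329019 UMIs in 83 members leave intervals of over 1 log2 unit for Ptcra and Rag1.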

Other observations

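The same thresholds were met by 1 of 1478 (0.0677%) and 4 of 4928 (0.0812%) filtered spleen cells, and by 1 of 456 (0.219%) and 2 of 561 (0.357%) filtered tumor cells. Those 8 cells held 0 UMIs of Dntt, Ptcra, Rag1 and Rag2, and 1 UMI of Foxp3 in each tumor library.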
